A study of Homo sapiens with 6 samples.

Results

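The long arm of chromosome 7 carries 18 of the 30 cysteine tRNA genes and pseudogenes that RefSeq lists with the anticodon GCA, and the windows examined here are those of the tRNA class that start between positions 148900000 and 150200000 (GRCh38). A window is a 400 bp interval that begins 150 bp before a gene's start site and ends 250 bp after it, which takes in a whole tRNA gene with flanking DNA on both sides. By this rule, which uses class and position and no read count, 16 of 53603 windows belonged to the cluster, out of 534 tRNA windows in all. The small RNA libraries came from HEK293T cells, an embryonic kidney line of human origin that carries the SV40 large T antigen and is labelled as epithelial. The study asked how La bears on small RNA read from promoters, and cells had been transfected for 48 h with 150 nM of either a control siRNA or an siRNA against La, with 3 libraries per arm described as biological replicates and 6 in all (siControl and siLa below, with values per library in the order of replicates 1 to 3). Both arms received Lipofectamine RNAiMAX. The data come from this single line, and the siRNA sequences are not given in the sources used here.

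A cysteine tRNA carries cysteine to the ribosome and reads its codons with the anticodon GCA. RNA polymerase III makes tRNA precursors from promoter elements inside the gene and stops at a run of T, which leaves an oligo(U) end. La, encoded by SSB, binds that end, shields the precursor from exonucleases and helps it fold before the trailer is cut off. Genes are named by amino acid, anticodon, a number for the mature sequence and a number for the copy, so TRC-GCA9-2, TRC-GCA9-3 and TRC-GCA9-4 are copies with the same mature tRNA in different flanking DNA. Reads that fit several copies may have been given to any of them, because how such reads were placed is not given in the sources used here.

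Going by RefSeq names alone, the label of a cysteine cluster held for most members but not for most of the read count. RefSeq places 20 tRNA genes in the stretch, 13 of which had a window, and the other 7 were not analysed here. Of the 16 windows, 11 held a cysteine gene, 1 held TRS-AGA5-1, named as a serine gene, and 1 held the tyrosine tRNA pseudogene TRY-GTA11-1. The remaining 3 (tRNA_52231, tRNA_51404 and tRNA_53497) held no RefSeq tRNA gene. The windows spanned 398 kb, from position 149310040 to 149707918. A stretch of 169 kb without a member divided them into 6 windows with 9.41% of the cluster's counts and 10 windows with 90.6%. In GENCODE release 29, 13 members lay between genes and 3 (TRC-GCA22-1, TRS-AGA5-1 and tRNA_51404) lay in introns of the pseudogene ZNF767P, which runs on the minus strand. Of the 13 named genes, 8 were on the plus strand and 5 on the minus strand, as read from the side on which the window was built.

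Total counts ran from 3066299 to 4105806 per library. The SSB window PCG_40419 (chromosome 2, positions 169798729 to 169799128) had 4, 3 and 3 counts in siControl libraries and 1, 0 and 0 in siLa libraries. The other SSB window, PCG_12982, had 0, 0 and 1 counts in siControl and 0, 2 and 0 in siLa libraries. Both count small RNA at a start site and say little about the depth of the knockdown.

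All cluster windows together drew 6153 of 20487812 counts. The cluster had 1671, 1092 and 1263 counts in siControl libraries and 708, 464 and 955 counts in siLa libraries. As a share of all counts this was 0.0368% ± 0.00364 with the control siRNA and 0.0223% ± 0.00835 with the La siRNA (SD, n = 3 each, two-sided exact permutation p = 0.1, the smallest that 3 against 3 libraries allow). After Benjamini-Hochberg adjustment over a family of 5 shares, the permutation p was 0.167. The family holds this share and each share below with an adjusted permutation p, some of them chosen after the values were seen. The share of the tRNA windows as a whole was outside the family. Every La knockdown library had a lower share than every control library. siLa replicate 2 had the lowest share and siControl replicate 1 the highest. Without the serine window described below the difference of -0.014 percentage points became -0.0070, the ranges overlapped and the exact permutation p was 0.2. The tRNA windows as a whole had a share of 15.6% ± 0.351 with the control siRNA against 11.5% ± 1.57 with the La siRNA (SD, n = 3, exact permutation p = 0.1). Fewer transcripts per cell and fewer cells that make them cannot be told apart in bulk RNA.

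Whether the cluster differed between the arms relative to the other tRNA windows was not settled. The exact permutation test of 3 against 3 libraries cannot give a p below 0.1. Cluster windows held 0.236% ± 0.0229 of tRNA window counts with the control siRNA and 0.190% ± 0.0498 with the La siRNA (SD, n = 3), and the ranges overlapped (exact permutation p = 0.3, adjusted 0.375). The difference of -0.046 percentage points was -0.018 without siLa replicate 2 and -0.065 without siLa replicate 3. Of the siLa libraries only replicate 3, at 0.228%, lay above any control, namely siControl replicates 2 (0.219%) and 3 (0.226%). Against cysteine genes on other chromosomes the ranges overlapped as well. The cluster's 11 cysteine windows, without its other members, held 22.6% ± 3.62 of all cysteine tRNA window counts with the control siRNA and 20.9% ± 1.83 with the La siRNA (SD, n = 3, exact permutation p = 0.6, adjusted 0.6). That difference, -1.71 percentage points, came to 0.010 without siControl replicate 1 and to -3.60 without siControl replicate 3. With TRC-GCA2-4, the best-read cysteine window elsewhere, left out of the total it was -0.0053.

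**Figure D1:**
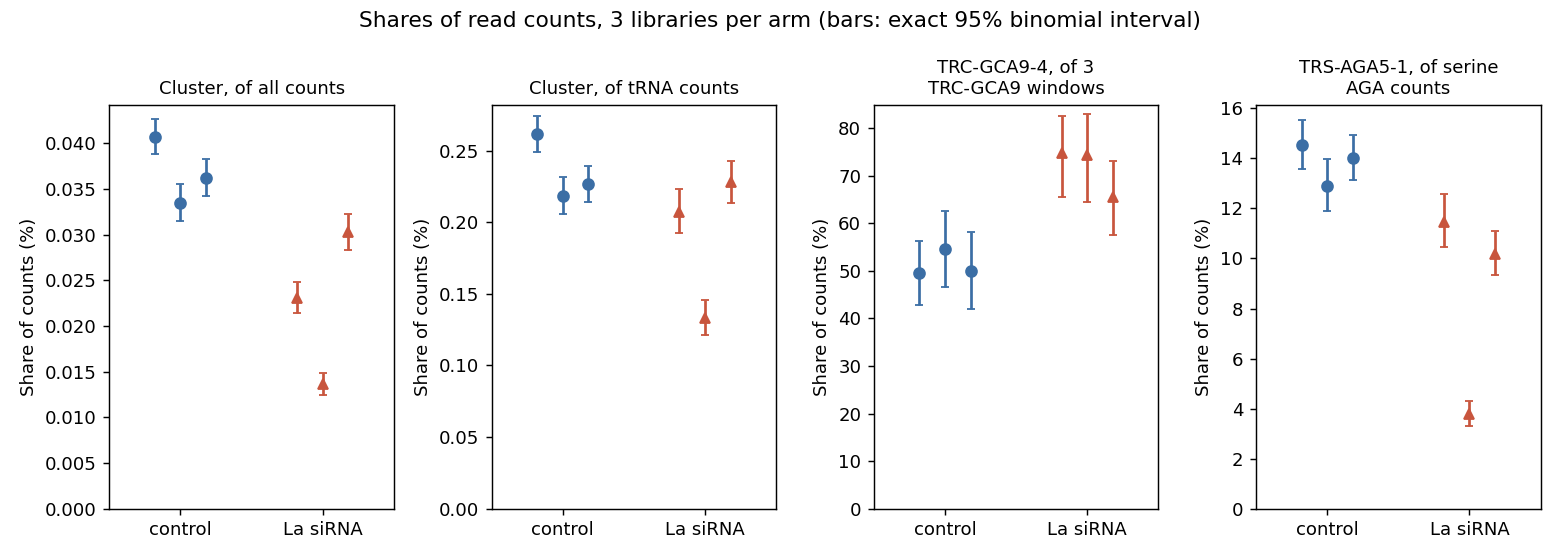
Share of read counts (%) in each library, with the control arm as circles and the La knockdown arm as triangles, 3 libraries per arm and bars for the exact 95% binomial interval, which covers counting error only. The arms do not overlap for the cluster's share of all counts, for TRC-GCA9-4 within the 3 TRC-GCA9 windows of the cluster or for TRS-AGA5-1 within the serine AGA windows, and they overlap for the cluster's share of tRNA counts.

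Window by window, most fitted values were below 0 and none passed the test. Of 16 members, 11 passed the filter on low counts, namely TRS-AGA5-1 and 10 cysteine windows. In edgeR's quasi-likelihood test 0 of the 11 were lower and 0 higher at a Benjamini-Hochberg adjusted p under 0.05, where 4.79% of all 1064 tested windows were lower and 0.658% were higher. At an unadjusted p under 0.05, 3 members were lower and 0 higher, against 14.2% and 9.68% of all tested windows. Among the 435 tested tRNA windows outside the cluster 7.13% were called lower and 26.2% were lower at an unadjusted p under 0.05, so the members' 3 of 11 lay near the background of their class. DESeq2 called 1 member lower, TRC-GCA21-1, where it called 7.15% of the windows lower. Without siLa replicate 3 edgeR called 2 members lower, TRC-GCA21-1 and TRC-GCA9-2, where it called 8.60% of the windows lower.

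The fitted log2 fold change was below 0 for 10 of 11 tested members, as it was for 53.2% of all tested windows and 82.5% of the other tested tRNA windows. The median was -0.63 over the members, -0.05 over all tested windows and -0.42 over the other tested tRNA windows. Upper quartile scaling, which moved the median of all windows by 0.32, gave 9 of 11 below 0 and a median of -0.31. The arms' ranges of CPM (read counts scaled by library size and TMM factors) did not overlap in 4 members, all lower in La knockdown, against 17.9% of all tested windows and 34.5% of the other tested tRNA windows. No member was higher without overlap, against 14.1% of all tested windows and 2.99% of the other tested tRNA windows. By total count alone, without TMM factors, 5 members were lower without overlap, against 22.5% of all tested windows and 40.9% of the other tested tRNA windows, a check added after seeing the data. The additional member was TRC-GCA1-1. With TMM factors the lower members were TRC-GCA21-1, TRC-GCA9-2, TRC-GCA9-3 and TRS-AGA5-1.

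**Figure D2:**
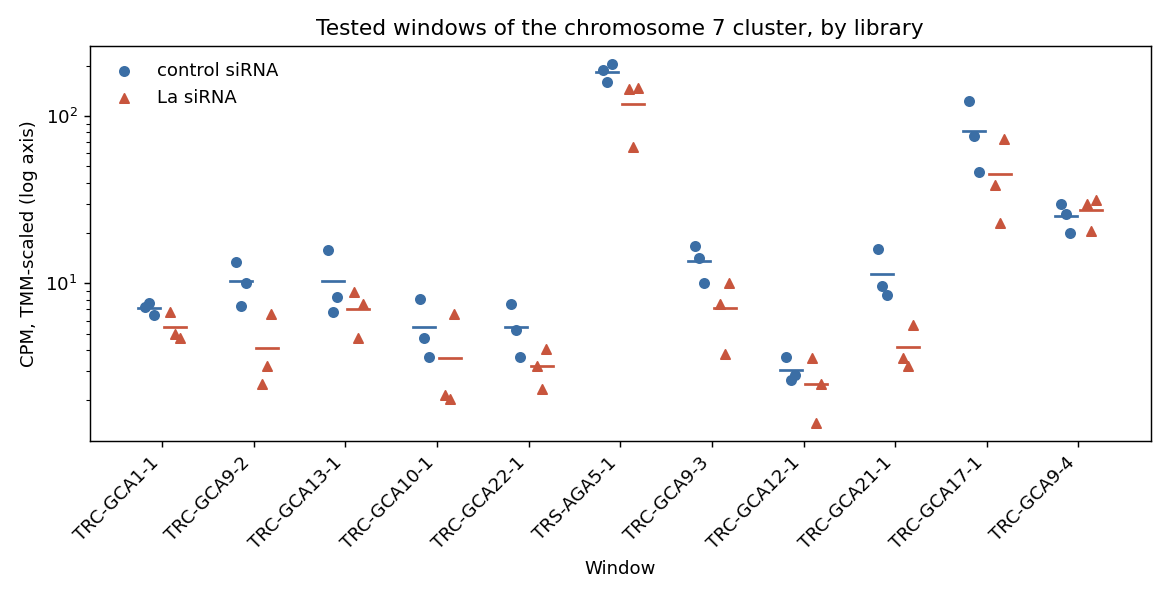
CPM scaled with TMM factors (log axis) of the 11 tested windows in chromosomal order, with the control arm as circles and the La knockdown arm as triangles, 3 libraries per arm and a line at each mean. TRS-AGA5-1 and TRC-GCA17-1 stand above the rest, and TRC-GCA9-4 is the window whose La knockdown mean is above its control mean.

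The best-read member was TRS-AGA5-1, a serine window by name. Its name gives serine and the anticodon AGA, but which amino acid its tRNA carries was not tested. TRS-AGA5-1 lies at positions 149608376 to 149608447 in an intron of ZNF767P. It had 724, 540 and 794 counts in siControl libraries and 404, 223 and 467 counts in siLa libraries. All La knockdown values were below all control values, and siLa replicate 2 was the lowest. The mean went from 184 ± 23.2 to 119 ± 46.2 CPM (SD, n = 3; log2 fold change -0.63, SE 0.32, adjusted p in edgeR 0.240), which did not pass the threshold. The log2 fold change was -0.36 without siLa replicate 2 and -0.88 without siLa replicate 3. This window alone took 51.9% ± 9.99 of the cluster's counts with the control siRNA and 51.3% ± 4.97 with the La siRNA (SD, n = 3).

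TRS-AGA5-1 was then set against the other serine AGA windows, a comparison chosen after the values were seen. By RefSeq positions the 9 other genes are longer than TRS-AGA5-1 (for example TRS-AGA2-6, chromosome 17, 8226610 to 8226691). TRS-AGA5-1 is as long as most cysteine genes of the cluster, so the comparison is by name and not between like copies. The 9 serine AGA windows on other chromosomes had between 117 and 158 CPM with the control siRNA, similar to one another, and their fitted log2 fold changes ran from 0.07 to 0.32 with 0 called (lowest edgeR adjusted p = 0.406). TRS-AGA5-1 held 14.5%, 12.9% and 14.0% of all serine AGA window counts in siControl libraries and 11.5%, 3.77% and 10.2% in siLa libraries. Its share was thus lower in each La knockdown library than in any control library. In siLa replicate 2 the 9 other windows had 174 to 199 CPM, against 115 to 168 in siLa replicates 1 and 3. The share of 3.77% in siLa replicate 2 therefore also reflects higher values of the other windows. The closest libraries were siControl replicate 2 at 12.9% (exact 95% interval 11.9% to 14.0%) and siLa replicate 1 at 11.5% (10.4% to 12.6%), and these intervals overlap. The means were 13.8% ± 0.829 and 8.48% ± 4.13 (SD, n = 3, exact permutation p = 0.1, adjusted 0.167). The difference of -5.34 percentage points was -2.98 without siLa replicate 2 and -6.83 without siLa replicate 1.

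Next in counts was TRC-GCA17-1, the best-read cysteine window of the cluster (gene at positions 149691181 to 149691252, minus strand). It had 476, 257 and 179 counts in siControl libraries and 108, 78 and 233 counts in siLa libraries. Control libraries differed among themselves by a coefficient of variation of 47.8%, and siLa replicate 3 lay above siControl replicate 3, so the arms overlapped. The mean went from 81.9 ± 39.1 to 44.8 ± 25.7 CPM (SD, n = 3; log2 fold change -0.87, SE 0.45, adjusted p in edgeR 0.247). Single libraries moved the log2 fold change of TRC-GCA17-1, which was -0.45 without siControl replicate 1, -0.56 without siLa replicate 2 and -1.49 without siLa replicate 3. Together TRS-AGA5-1 and TRC-GCA17-1 held 72.9% of the cluster's counts.

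The lowest fitted value belonged to TRC-GCA21-1 (gene at positions 149664824 to 149664895, plus strand). It had 62, 33 and 33 counts in siControl libraries and 10, 11 and 18 counts in siLa libraries. The arms were well apart, and siControl replicate 1 was far above the other controls by count. The mean went from 11.4 ± 4.08 to 4.15 ± 1.31 CPM (SD, n = 3), which is 2.75-fold lower on the fitted scale. The log2 fold change was -1.46 (SE 0.39) and the edgeR adjusted p 0.0605, above the threshold. Under the alternatives the adjusted p ranged from 0.0170 without a filter to 0.265 without siLa replicate 1, and 5 of 14 alternatives called the window.

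The copies TRC-GCA9-2, TRC-GCA9-3 and TRC-GCA9-4 share a mature sequence, yet their windows had unlike values. Unlike control means were not particular to them, since the TRC-GCA2 windows outside the cluster had control means from 21.1 to 331 CPM. The log2 fold changes of those TRC-GCA2 windows ran from -0.89 to -0.40, all below 0, against -1.32 to 0.11 for these 3 copies. TRC-GCA9-2 (gene at positions 149331129 to 149331200) had 52, 25 and 39 counts in siControl libraries and 7, 11 and 21 counts in siLa libraries. Its arms did not overlap, with -1.32 ± 0.43 (SE) as log2 fold change and 0.109 as adjusted p in edgeR. TRC-GCA9-3 (positions 149635687 to 149635758) had 64, 48 and 39 counts in siControl and 21, 13 and 32 in siLa libraries. Its arms touched without overlapping, at 10.1 CPM in siControl replicate 3 and 10.0 CPM in siLa replicate 3, with -0.94 ± 0.40 (SE) as log2 fold change and 0.186 as adjusted p in edgeR. TRC-GCA9-4 (positions 149707669 to 149707740) had 114, 88 and 78 counts in siControl and 83, 70 and 101 in siLa libraries. Its arms overlapped widely, at 25.2 ± 4.79 and 27.3 ± 5.93 CPM (SD, n = 3). The fitted log2 fold change of TRC-GCA9-4 was 0.11 with a 95% interval from -0.55 to 0.77 (edgeR adjusted p = 0.815), so it did not differ beyond the spread, and its sign turned without siControl replicate 3, without siLa replicate 3 and without a filter.

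The difference between the copies was tested within each library, a comparison chosen after the values were seen. TRC-GCA9-4 held between 49.6% and 54.7% of the counts of these 3 windows in siControl libraries and 74.8%, 74.5% and 65.6% in siLa libraries. The closest libraries were siControl replicate 2 (exact 95% interval 46.6% to 62.5%, 161 counts) and siLa replicate 3 (57.5% to 73.0%, 154 counts), and their intervals overlap. The mean share was 51.4% ± 2.82 with the control siRNA and 71.6% ± 5.22 with the La siRNA (SD, n = 3, exact permutation p = 0.1, adjusted 0.167). The difference of 20.2 percentage points stayed between 18.6 and 23.2 with each library left out in turn. With the remaining copy TRC-GCA9-1 of chromosome 3 added to the total it was 14.9. The TRC-GCA9-1 window, outside the cluster, went from 14.7 ± 6.28 to 12.1 ± 4.20 CPM (SD, n = 3; log2 fold change -0.28, adjusted p in edgeR 0.658).

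**Figure D3:**
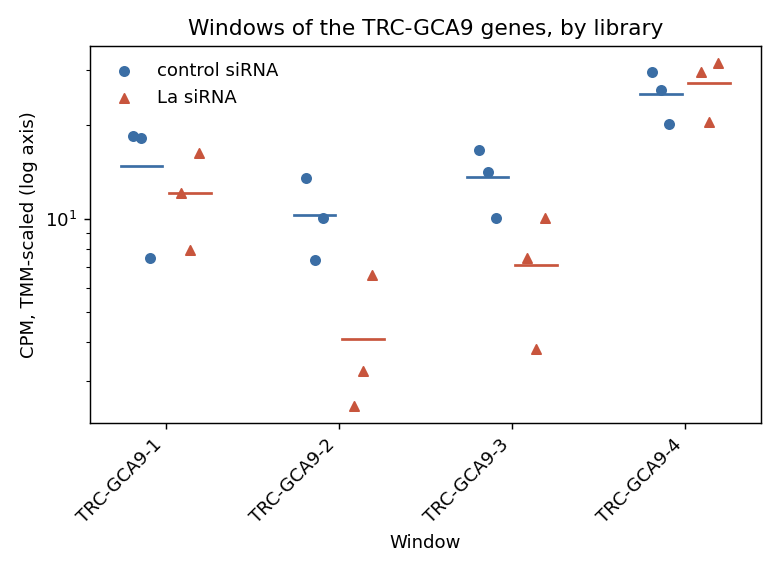
CPM scaled with TMM factors (log axis) of the 4 windows of TRC-GCA9 genes, with the control arm as circles and the La knockdown arm as triangles, 3 libraries per arm and a line at each mean. The arms are apart for TRC-GCA9-2, touch for TRC-GCA9-3 and overlap for TRC-GCA9-4 and for TRC-GCA9-1 of chromosome 3.

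The other tested cysteine members had means of 3.04 to 10.3 CPM with the control siRNA, and the arms of each overlapped on that scale. TRC-GCA13-1 (149355675 to 149355746) had 61, 23 and 32 counts in siControl libraries and 25, 16 and 24 in siLa libraries (log2 fold change -0.56, adjusted p in edgeR 0.389). The value was -0.11 without siControl replicate 1, -0.35 without siLa replicate 2 and -0.80 without siControl replicate 2. TRC-GCA1-1 (149310190 to 149310261), the first member along the chromosome, had 28, 26 and 25 counts against 19, 17 and 15 (log2 fold change -0.38, adjusted p in edgeR 0.439). Its arms were apart by raw count and per total count, at 6.20 CPM without TMM factors in siLa replicate 1 and 6.82 in siControl replicate 1. With TMM factors (0.913 for siLa replicate 1 and 1.11 for siControl replicate 3) siLa replicate 1 came to 6.78 CPM, above siControl replicate 3 at 6.45 CPM. Without siLa replicate 1 the log2 fold change of TRC-GCA1-1 was -0.58. TRC-GCA10-1 (149377510 to 149377581) had 31, 16 and 14 counts against 6, 7 and 21, with siLa replicate 3 above 2 of the controls (log2 fold change -0.60, adjusted p in edgeR 0.444). Leaving out single libraries gave -0.20 without siControl replicate 1, -0.37 without siLa replicate 1, -0.31 without siLa replicate 2 and -1.44 without siLa replicate 3. TRC-GCA22-1 (149556711 to 149556780), in an intron of ZNF767P, had 29, 18 and 14 counts against 9, 8 and 13 (log2 fold change -0.77, adjusted p in edgeR 0.258). Its value was -0.47 without siControl replicate 1 and -1.06 without siLa replicate 3. TRC-GCA12-1 (149646955 to 149647026), the least-read tested member and outside the rule for named windows, had 14, 9 and 11 counts against 10, 5 and 8. Its log2 fold change was -0.30 (edgeR adjusted p = 0.651) and turned to 0.02 under upper quartile scaling. It was -0.15 without siControl replicate 1, -0.64 without siLa replicate 1 and -0.030 without siLa replicate 2.

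The 5 members left out of the test had 43 counts in all. TRC-GCA16-1 (149546540 to 149546611) had 5, 4 and 3 counts in siControl libraries and 2, 5 and 1 in siLa libraries. The pseudogene window TRY-GTA11-1 (149356654 to 149356729) had 11, 5 and 0 counts against 1, 0 and 1, and 11 of its 16 siControl counts came from replicate 1. tRNA_51404 had 0, 0 and 1 counts against 3, 0 and 0, and tRNA_53497, which overlaps the TRC-GCA9-3 window, had 1 count, in siControl replicate 3. tRNA_52231 had 0 counts in all 6 libraries, which allows up to 0.146 CPM over the pooled libraries (3 counts, counting error only).

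Libraries of an arm were not alike across the members. By CPM, siControl replicate 1 was the highest control in 9 of the 11 tested windows and siControl replicate 3 the lowest in 7. siLa replicate 3 was the highest of its arm in 8 and siLa replicate 2 the lowest in 9. With each of these left out, the median log2 fold change over the members was -0.45 without siControl replicate 1 and -0.82 without siControl replicate 3. It was -0.36 without siLa replicate 2 and -1.06 without siLa replicate 3.

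**Figure D4:**
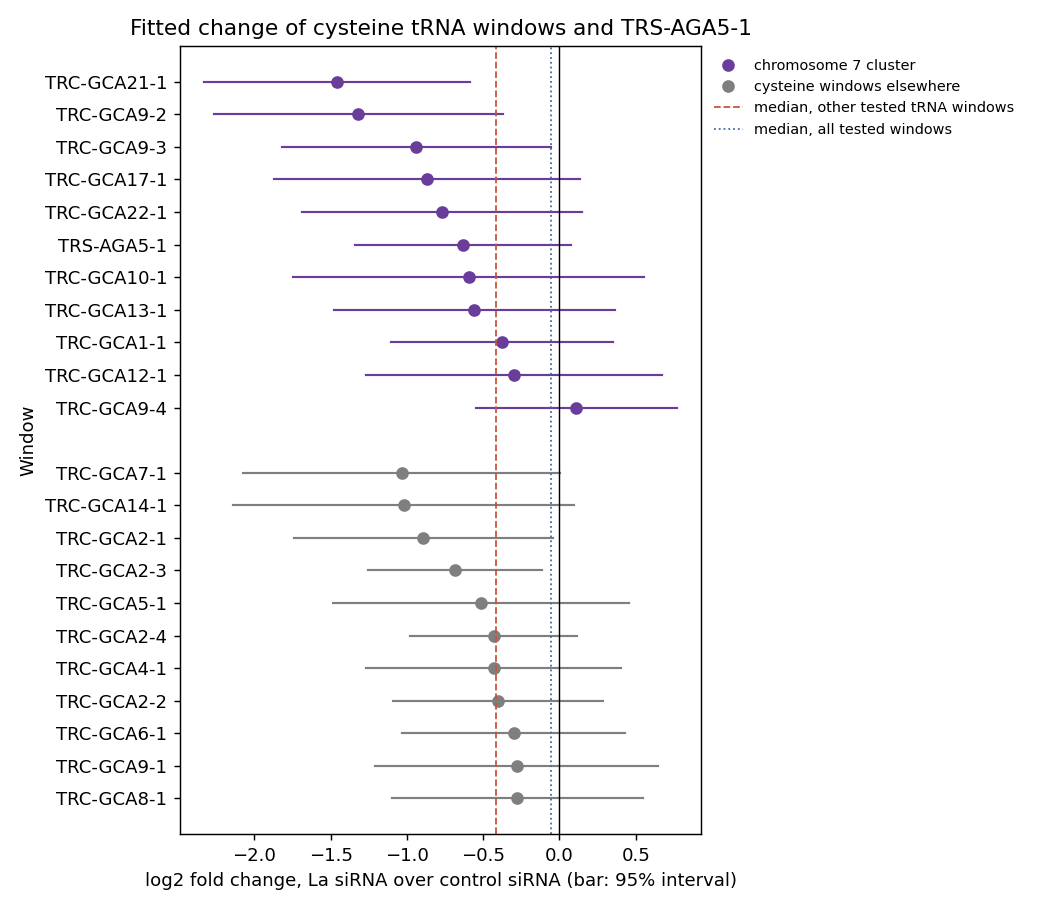
Fitted log2 fold change (La knockdown over control) with its 95% interval for the 11 tested windows of the cluster and the 11 cysteine windows on other chromosomes, beside the medians of the other tested tRNA windows (dashed) and of all tested windows (dotted). The intervals of TRC-GCA21-1, TRC-GCA9-2 and TRC-GCA9-3 in the cluster and of TRC-GCA2-1 and TRC-GCA2-3 elsewhere lie below 0. No window of either group passed the adjusted threshold.

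Cysteine genes on other chromosomes gave fitted values of the same sign. All 11 such windows were tested and 0 were called in edgeR (2 were lower before adjustment, at p under 0.05), and their log2 fold changes ran from -1.03 to -0.28 with a median of -0.43. Over all tested windows 4.79% were called lower and 14.2% were lower at an unadjusted p under 0.05, and among the other tested tRNA windows 26.2% were lower at that p and 82.5% were fitted below 0, so these counts lay near the background of the class. The best-read of them, TRC-GCA2-4 on chromosome 17, had 1433, 1047 and 1214 counts in siControl libraries and 695, 664 and 939 in siLa libraries. Its arms did not overlap at 331 ± 35.7 and 246 ± 49.9 CPM (SD, n = 3; log2 fold change -0.43, adjusted p in edgeR 0.278). TRC-GCA2-1 on chromosome 4 and TRC-GCA2-3 on chromosome 17 were fitted at -0.89 and -0.68 on the log2 scale (adjusted p in edgeR 0.188 and 0.157). TRC-GCA14-1 and TRC-GCA2-2 on chromosome 17 had -1.02 and -0.40, TRC-GCA6-1 on chromosome 3 had -0.30 and TRC-GCA8-1 on chromosome 14 had -0.28.

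Other genes of cysteine tRNA supply and of La's RNA polymerase III targets served for comparison. The windows at the start sites of CARS1 (named CARS in GENCODE release 29) and CARS2, the cytosolic and mitochondrial cysteinyl-tRNA synthetases, had too few reads to be tested. Of 25 tested windows of vault, Y, 7SK, 7SL, U6, RMRP and RPPH1 RNA genes, 2 were lower and 0 higher (edgeR adjusted p under 0.05), where 4.79% and 0.658% of all tested windows were called, and both were vault RNA windows. These 25 windows are not 25 separate genes: 7SK and RMRP had 2 windows each, 7SL windows overlapped, and U6 windows included RefSeq pseudogenes. The 4 Y RNA genes lie in the same stretch of chromosome 7 as the cysteine genes. Their log2 fold changes ran from -0.49 to 0.08 with 0 called.

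The authors' deposited table also called 0 of the 16 members, where it called 0.153% of its 53603 windows at an adjusted p under 0.05. Its lowest adjusted p among them was 0.0994, for TRC-GCA21-1, with a log2 fold change of -1.70 in the authors' deposited table. For TRC-GCA9-4 the authors' deposited table gave -0.13. Over the tested members the authors' log2 fold changes minus those fitted here had a median of -0.24, so the values of the members were shifted as a group.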

How the data were processed

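Read counts per window were deposited by the authors as raw counts in 6 libraries. Per the submitters' processing notes, Trim Galore, Bowtie2, bedtools and edgeR were used with GRCh38 (hg38); their roles, strand use and the placing of reads with several positions are not given in the sources used here. The authors' deposited table holds, for each window, log2 fold change and log2 CPM, an F score, and p-values before and after adjustment. Per the labels' protocols, small RNA (mirVana PARIS) was treated with Antarctic phosphatase and T4 polynucleotide kinase before NEBNext library preparation.

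Windows were named from RefSeq GRCh38.p14 by an overlap of at least 20 bp; 11 of the 16 members matched a start site to the base. RefSeq starts count from 1, as do the positions printed. No sequence of these genes was used here. Cell type markers were not tested, since windows count small RNA.

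The whole table was fitted with edgeR 4.0.16 (R 4.3.3), filterByExpr defaults, TMM factors, the arm as single term and Benjamini-Hochberg adjustment at 0.05; the fit was tested on simulated data. Standard errors derive from the log2 fold change and F. Exact permutation tests (two-sided) compared shares, with exact Clopper-Pearson 95% intervals per library. Intervals cover counting error only.

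Alternatives were other scalings, filters, DESeq2 1.42.0, an adjusted p under 0.01, a replicate block, and each library left out. Named windows were SSB, called members, the 10 members with the highest mean count, the lowest and highest fitted change, tested members without a cysteine gene, and up to 8 tested cysteine windows elsewhere. The members and lists were chosen with earlier results of these data known. Figures used matplotlib 3.10.9.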

Additional observations from a re-analysis of the deposited data

How the results depend on the processing

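Members called lower, 0 with all libraries, became 1 with library size alone (6.48% of all windows), 1 without a filter (0.476%), 1 with DESeq2, and from 0 to 2 with each library left out, the 2 coming without siLa replicate 3. Members called higher stayed at 0 in each alternative, and at an adjusted p under 0.01 both counts were 0. A block for the replicate number gave 2 lower members (8.27% of all windows). A check on whether libraries of the same number were paired did not settle the question. Correlations of deviations from the arm mean ran from -0.46 to 0.23, and 2 of 6 libraries correlated best with their own number. With 3 libraries per arm this check cannot exclude pairing. Of 151 refitted values of single members, 140 kept their direction and side of the threshold, 7 came to pass it and 4 reversed. The reversals were TRC-GCA12-1 with upper quartile factors (0.023) and TRC-GCA9-4 without siControl replicate 3 (-0.027), without siLa replicate 3 (-0.082) and without a filter (-0.14). With each library left out TRC-GCA9-4 ranged from -0.082 to 0.27. The members' median stayed below 0, from -1.06 to -0.31. The cluster's share of cysteine counts differed by from -3.60 to 0.010 percentage points with each library left out, the reversal coming without siControl replicate 1. The cause of these changes was not tested. The standard errors of the tested members ran from 0.30 to 0.52 on the log2 scale and were not ordered by read count: TRC-GCA17-1, with a mean of 222 counts, had 0.45 and TRC-GCA1-1, with 21.7, had 0.33.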
